A study of Danio rerio with 11 samples.

Results

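Genes of the kinetochore and the spindle checkpoint were examined in RNA bound by eIF4E1b or by eIF4E1c in zebrafish (Danio rerio) embryos. The genes were taken by a rule on symbols that holds no measured value, but they were chosen with earlier results of these data known. Gene identifiers were taken by a fixed pattern of Ensembl zebrafish symbols. It named proteins of the inner and outer kinetochore, CENP-A loading, the checkpoint, the RZZ complex and corona, and the passenger complex and shugoshins. The pattern did not cover every gene of these roles, and AURKB and SPDL1, for example, were left to the list of partners below. It gave 48 of the 32520 identifiers counted in each library. The symbol rule also took 3 genes outside these roles, namely MAD2L2, a subunit of a DNA repair polymerase, the long non-coding RNA oip5-as1 and CENPV. CENPV had between 0 and 19 normalized counts per library and was not tested, which left 47 tested genes in every comparison. Symbols are printed as the name table writes them, some in capitals. Genes such as incenp, pmf1, cenpc and cenpa matched no symbol in the table and were not analysed here, and positions are not given because an annotation of the GRCz11 build was not used here.

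The kinetochore is the protein assembly that forms on centromeric chromatin and holds each chromosome to spindle microtubules during division. Its inner layer sits on nucleosomes that carry the histone variant CENP-A, its outer layer binds microtubules, and the checkpoint proteins that gather there delay anaphase until chromosomes are attached. The first divisions of a zebrafish embryo are fast and run on messages that the mother laid down in the egg.

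eIF4E1b and eIF4E1c belong to the family of eIF4E proteins, which bind the cap of messenger RNA. Embryos at the 8-cell stage carried either the transgene tg(actb2:3xflag-sfGFP-eIF4E1b) or the transgene tg(actb2:3xflag-sfGFP-eIF4E1c), in which the promoter of a beta-actin gene, active in most cells, drives a tagged protein in addition to what the embryo makes itself. In RNA immunoprecipitation (RIP) the tagged protein was pulled from the lysate with anti-GFP beads and the RNA that came with it was sequenced. The input is RNA of a part of each lysate that did not go through the pull-down. The main tests did not pair RIP and input libraries. The eIF4E1b line gave 3 RIP and 3 input libraries and the eIF4E1c line 2 RIP and 3 input libraries, labelled as biological replicates, and no other allele or treatment is given for any of them. No pull-down from embryos without a tagged protein was analysed here, so background on the beads was not measured. RIP and input libraries were made with different kits, so the pull-down and the kit cannot be told apart when the RIP is set against the input.

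Libraries held from 6943631 to 13993294 counts. The first eIF4E1c RIP library was the shallowest, with 15114 genes detected. The second eIF4E1c RIP had 17520 genes detected and the other 9 libraries between 18480 and 19591. All 9 listed oocyte and egg transcripts were found, and they summed to between 3810 and 8070 CPM (counts scaled to the library total) in RIP libraries and to between 2630 and 3540 CPM in inputs. The 7 matched zygotic transcripts summed to between 1.02 and 4.66 CPM and the 5 matched markers of differentiated tissue to between 0.797 and 8.25 CPM, with the haemoglobin gene hbae1.1 at 0 in every group. Values per gene are read counts divided by a size factor (normalized counts). Unless another test is named, differences between groups were tested with DESeq2 (Wald test, p-values adjusted over all genes by the method of Benjamini and Hochberg), and a gene was called at an adjusted p under 0.005.

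The first question was whether either protein pulled down more of any of these transcripts than the other. Between the RIPs, 3 of the 47 genes were higher with eIF4E1b, namely ska2 and nuf2 of the outer kinetochore and cenpt of the inner kinetochore, and CENPL of the inner kinetochore was lower. ska2 was 5.53-fold higher, nuf2 3.87-fold higher and cenpt 2.57-fold higher, while CENPL was 3.99-fold lower. The calls were 6.38% higher and 2.13% lower of the members, against 3.44% higher and 4.51% lower of all 14127 genes tested. The median log2 fold change of the members was 0.22, with 25 positive and 22 negative values. That of all genes tested was -0.01, with 7003 positive and 7124 negative values. At an unadjusted p under 0.05, DESeq2 gave 8 higher (17.0%) and 7 lower (14.9%) members, against 14.8% and 16.4% of all genes, and edgeR's quasi-likelihood test gave 7 and 7 members. Scaling by total counts gave 2 higher and 1 lower, against 280 and 581 of all 14544 genes, and shifted the median of all genes by -0.11. At its adjusted p under 0.005 edgeR called 0 members in either direction, and 2 higher and 2 lower among all 14929 genes it tested. At an adjusted p under 0.05 it called 3 higher and 2 lower members, against 484 and 833 of all 14929 genes. With 1 library left out, 1 member was higher without eIF4E1b RIP replicate 2 or without eIF4E1b RIP replicate 3. How many of all genes were called in such fits was not counted, so this is not read as a trait of the members. Lysates were of whole embryos, so the RNA of single cells was not measured.

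**Figure D1:**
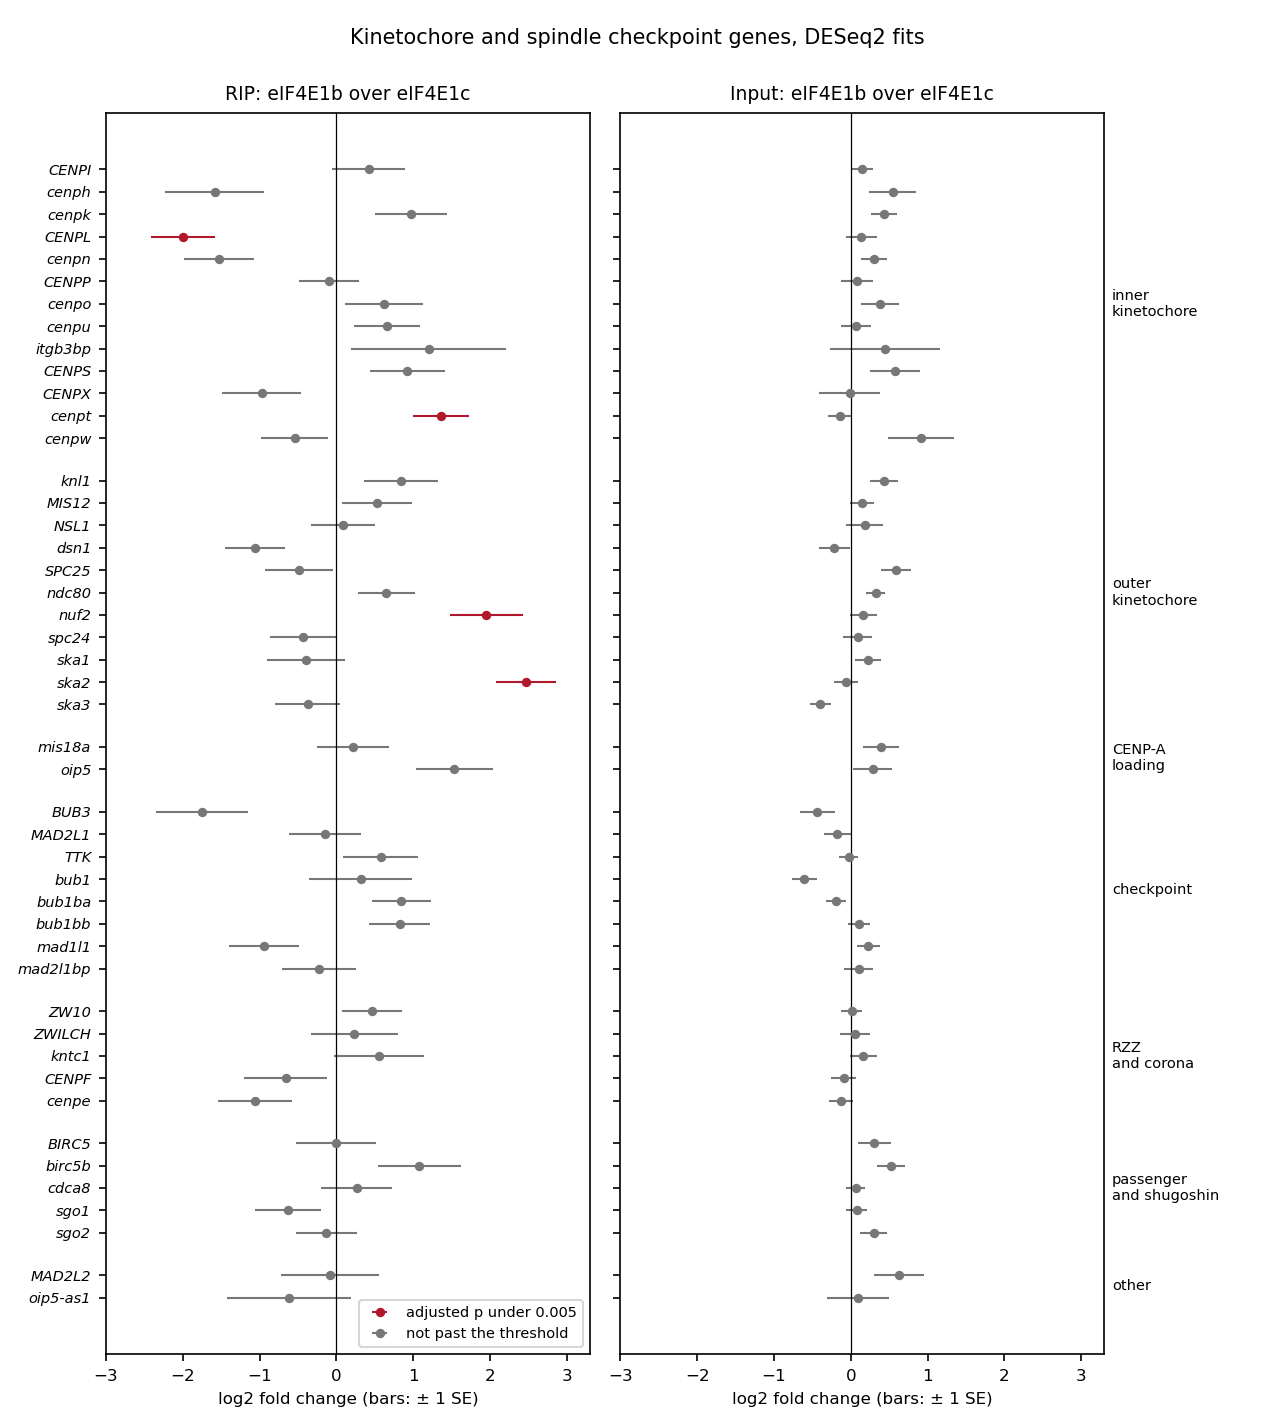
Log2 fold change (horizontal axis) of eIF4E1b over eIF4E1c for 46 of the 47 tested genes, grouped by role, in the RIP libraries (left, 3 against 2) and in the input libraries (right, 3 against 3). Points are DESeq2 estimates and bars are ± 1 standard error. Red marks an adjusted p under 0.005, which only ska2, nuf2, cenpt and CENPL reached in the RIPs and none reached in the inputs, where the values spanned -0.60 to 0.91.

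ska2 (ENSDARG00000114038) encodes a subunit of the SKA complex, which keeps kinetochores on microtubules as these grow and shrink. It had 58098, 74512 and 69626 normalized counts in the 3 eIF4E1b RIPs, against 9064 and 14277 in the 2 eIF4E1c RIPs. The lowest eIF4E1b RIP thus stood well above the higher eIF4E1c RIP, and the groups did not overlap. On the log2 scale the difference was 2.47 ± 0.39 (SE), and its DESeq2 adjusted p of 7.12e-08 ranked 23 among those of the 486 genes called higher. By size of change ska2 ranked 213 among these genes. edgeR gave an adjusted p of 0.0213. With any single library left out the DESeq2 call held, with log2 fold changes between 2.16 and 2.83. In the lysates ska2 was not called, with 1627, 1621 and 1610 normalized counts in eIF4E1b inputs and 2093, 1544 and 1472 in eIF4E1c inputs.

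As a share of all counts of a library, ska2 made up 0.478%, 0.561% and 0.467% of the eIF4E1b RIPs and 0.0611% and 0.143% of the eIF4E1c RIPs. In the inputs its share was between 0.0160% and 0.0171% with eIF4E1b and between 0.0142% and 0.0203% with eIF4E1c. The Wilson 95% confidence interval, which covers counting error only, was 0.4742% to 0.4816% for the first eIF4E1b RIP and 0.05925% to 0.06293% for the first eIF4E1c RIP. Of all counts that fell on the 48 genes, without regard to transcript length, ska2 took between 45.9% and 53.9% in eIF4E1b RIPs, 15.7% and 21.1% in eIF4E1c RIPs and between 2.25% and 3.31% in inputs. The other 47 genes together made up between 0.444% and 0.551% of the eIF4E1b RIPs, against 0.329% and 0.536% of the eIF4E1c RIPs.

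The partners of ska2 in the SKA complex were not called. ska1 had 377, 324 and 509 normalized counts in eIF4E1b RIPs against 293 and 718 in eIF4E1c RIPs, and ska3 had 953, 1629 and 1776 against 1650 and 1950. The groups overlapped for both genes. Their log2 fold changes were -0.39 ± 0.51 (SE) for ska1 and -0.37 ± 0.42 (SE) for ska3, with DESeq2 adjusted p-values of 0.650 and 0.596. In the RefSeq annotation of another build (GRCz12tu), ska2 overlaps mdh2, tex14 and genes of microRNAs. There 18 of the 48 members, ska2 among them, overlap another gene, and the use of strand in counting is not given in the sources used here. MDH2 had 648 ± 263 (SD, n = 3) normalized counts in eIF4E1b RIPs and 1313 ± 403 (SD, n = 2) in eIF4E1c RIPs. Its log2 fold change was -1.08 ± 0.49 (SE), and it was not called (DESeq2 adjusted p = 0.105). Whether reads of overlapping genes were counted for ska2 was not tested. tex14 matched no symbol and was not analysed here.

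nuf2 (ENSDARG00000034624) encodes the partner of Ndc80 in the microtubule-binding end of the NDC80 complex. It had 5499, 12552 and 15646 normalized counts in eIF4E1b RIPs, against 2698 and 2842 in eIF4E1c RIPs. The groups did not overlap, but the first eIF4E1b RIP was far below the other two. The log2 fold change of nuf2 was 1.95 ± 0.48 (SE), with an adjusted p of 0.000944 by DESeq2 and 0.0399 by edgeR. The DESeq2 call was lost without eIF4E1b RIP replicate 2 (adjusted p 0.0203), eIF4E1b RIP replicate 3 (0.0248) or eIF4E1c RIP replicate 1 (0.00549), with log2 fold changes of 1.87, 1.66 and 1.90. The other 3 genes of the complex were not called. ndc80 had a log2 fold change of 0.65 ± 0.37 (SE), spc24 of -0.44 ± 0.43 (SE) and SPC25 of -0.48 ± 0.44 (SE), with DESeq2 adjusted p-values between 0.222 and 0.534.

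cenpt (ENSDARG00000091271) encodes a histone-fold protein of the inner kinetochore that binds DNA and recruits the NDC80 complex. It had 4898, 3928 and 4489 normalized counts in eIF4E1b RIPs, against 1614 and 1689 in eIF4E1c RIPs. The libraries of each group lay close together and the groups did not overlap. The log2 fold change was 1.36 ± 0.37 (SE), with an adjusted p of 0.00290 by DESeq2 and 0.0448 by edgeR. The DESeq2 call was lost without eIF4E1b RIP replicate 1 (adjusted p 0.0256), replicate 2 (0.0344) or replicate 3 (0.0389) or without eIF4E1c RIP replicate 1 (0.0125), with log2 fold changes between 1.28 and 1.45. The histone-fold partners of cenpt were not called. CENPS had a log2 fold change of 0.92 ± 0.48 (SE), cenpw of -0.54 ± 0.43 (SE) and CENPX of -0.97 ± 0.52 (SE), so values lay on both sides of 0 within this group of 4 proteins.

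CENPL (ENSDARG00000038802) and cenpn (ENSDARG00000043640) encode a pair of proteins that bind each other and through which the inner kinetochore recognizes CENP-A nucleosomes. CENPL had 167, 216 and 203 normalized counts in eIF4E1b RIPs, against 808 and 686 in eIF4E1c RIPs. cenpn had 286, 166 and 194 in eIF4E1b RIPs, against 609 and 581 in eIF4E1c RIPs. Both genes were lower in every eIF4E1b RIP than in either eIF4E1c RIP. For CENPL the log2 fold change was -2.0 ± 0.42 (SE), with an adjusted p of 7.38e-05 by DESeq2 and 0.0134 by edgeR, and the DESeq2 call held with each of the 5 libraries left out in turn. For cenpn it was -1.53 ± 0.45 (SE), with an adjusted p of 0.00811 by DESeq2 and 0.0427 by edgeR, and it was not called. Within each library the counts of the 2 genes were of similar size. The log2 ratio of CENPL to cenpn counts was between -0.77 and 0.38 in eIF4E1b RIPs, 0.24 and 0.41 in eIF4E1c RIPs, and between -0.45 and 0.28 in inputs. The genes did not rise and fall together in the eIF4E1b RIPs, where replicate 1 had the lowest CENPL and the highest cenpn value.

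Between the RIPs, DESeq2 gave 2 higher and 2 lower of the 8 checkpoint genes at an unadjusted p under 0.05. Of all genes it gave 14.8% higher and 16.4% lower. None of the 8 checkpoint genes was called, and edgeR called 0. BUB3 (ENSDARG00000075883), whose protein binds Bub1 and BubR1, had the smallest p of them. It had 172, 418 and 359 normalized counts in eIF4E1b RIPs, against 419 and 1620 in eIF4E1c RIPs. The difference rested on the second eIF4E1c RIP, since the first was level with the highest eIF4E1b RIP. Over all libraries the log2 fold change was -1.75 ± 0.60 (SE), not past the threshold (DESeq2 adjusted p = 0.0251). It was -0.48 with an adjusted p of 0.548 without eIF4E1c RIP replicate 2, and -2.44 with an adjusted p of 0.000227 without eIF4E1c RIP replicate 1.

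The zebrafish genes bub1ba and bub1bb are copies of the gene for BubR1, a checkpoint protein that holds back the anaphase-promoting complex. bub1ba (ENSDARG00000078825) had 1182, 1193 and 1158 normalized counts in eIF4E1b RIPs, against 560 and 696 in eIF4E1c RIPs. bub1bb (ENSDARG00000074927) had 718, 624 and 661 in eIF4E1b RIPs, against 336 and 386 in eIF4E1c RIPs. Neither gene overlapped between the groups, but neither was called, with log2 fold changes of 0.84 ± 0.38 (SE) and 0.82 ± 0.40 (SE) and DESeq2 adjusted p-values of 0.106 and 0.136. The remaining checkpoint genes lay between -0.95 for mad1l1, which recruits Mad2 to unattached kinetochores, and 0.58 for TTK, the kinase also known as Mps1. bub1, a kinase that docks checkpoint proteins, had 874, 572 and 390 normalized counts in eIF4E1b RIPs, against 120 and 825 in eIF4E1c RIPs, and the groups overlapped.

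The inner kinetochore genes not yet named lay between -1.58 for cenph and 1.20 for itgb3bp on the log2 scale, and 0 of these 7 were called. The value of itgb3bp rested on few reads, with 1 read in the first eIF4E1c RIP and 117 in the second. cenph, of the group that links CENP-A chromatin to the rest of the inner kinetochore, had 55.4, 58.1 and 55.4 normalized counts in eIF4E1b RIPs, against 246 and 78.9 in eIF4E1c RIPs. The 2 eIF4E1c RIPs were far apart, and the adjusted p was 0.0668 by DESeq2. In the outer kinetochore, the genes of the MIS12 complex, which ties the outer layer to the inner one, were at 0.52 for MIS12, 0.08 for NSL1 and -1.06 for dsn1, with DESeq2 adjusted p-values between 0.0390 and 0.923, and knl1 was at 0.84.

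In the other roles 0 genes were called between the RIPs by DESeq2 or by edgeR. At an unadjusted p under 0.05 DESeq2 gave 2 higher and 1 lower, against 14.8% and 16.4% of all genes. oip5, a subunit of the Mis18 complex that prepares centromeres for new CENP-A, had 2096, 3265 and 5257 normalized counts in eIF4E1b RIPs, against 793 and 1540 in eIF4E1c RIPs. All eIF4E1b RIPs were higher, with a log2 fold change of 1.53 ± 0.50 (SE) that was not past the threshold (DESeq2 adjusted p = 0.0164). mis18a, of the same complex, was at 0.22. BIRC5 (ENSDARG00000075621, birc5a in RefSeq) and birc5b (ENSDARG00000055655) are copies of the gene for survivin, a subunit of the passenger complex, which corrects faulty attachments. birc5b had 1857, 2448 and 5421 normalized counts in eIF4E1b RIPs against 902 and 2023 in eIF4E1c RIPs, while BIRC5 had 653, 848 and 1835 against 787 and 1340. The groups overlapped for both, with a log2 fold change of 1.08 ± 0.54 (SE) for birc5b and -0.0034 ± 0.52 (SE) for BIRC5. The RZZ complex and corona spanned -1.06 for cenpe, a kinesin motor, to 0.56 for kntc1, and the shugoshins sgo1 and sgo2, which protect centromeric cohesion, were at -0.63 and -0.13. cdca8, the passenger subunit borealin, was at 0.26, and MAD2L2 and oip5-as1 were at -0.09 and -0.62.

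Across the 47 genes, 13 had all eIF4E1b RIPs above both eIF4E1c RIPs and 9 had all below, while the libraries of 25 overlapped. These are 27.7% and 19.1% of the members, against 24.7% and 20.2% of all genes tested. The 2 eIF4E1c RIPs differed from each other by over 2-fold for 15 members, with 11 higher in replicate 2 and 4 higher in replicate 1. How many of all genes differed so was not counted, so this is not read as a trait of the members. The part of the lower depth of the first eIF4E1c RIP in these differences was not tested.

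**Figure D2:**
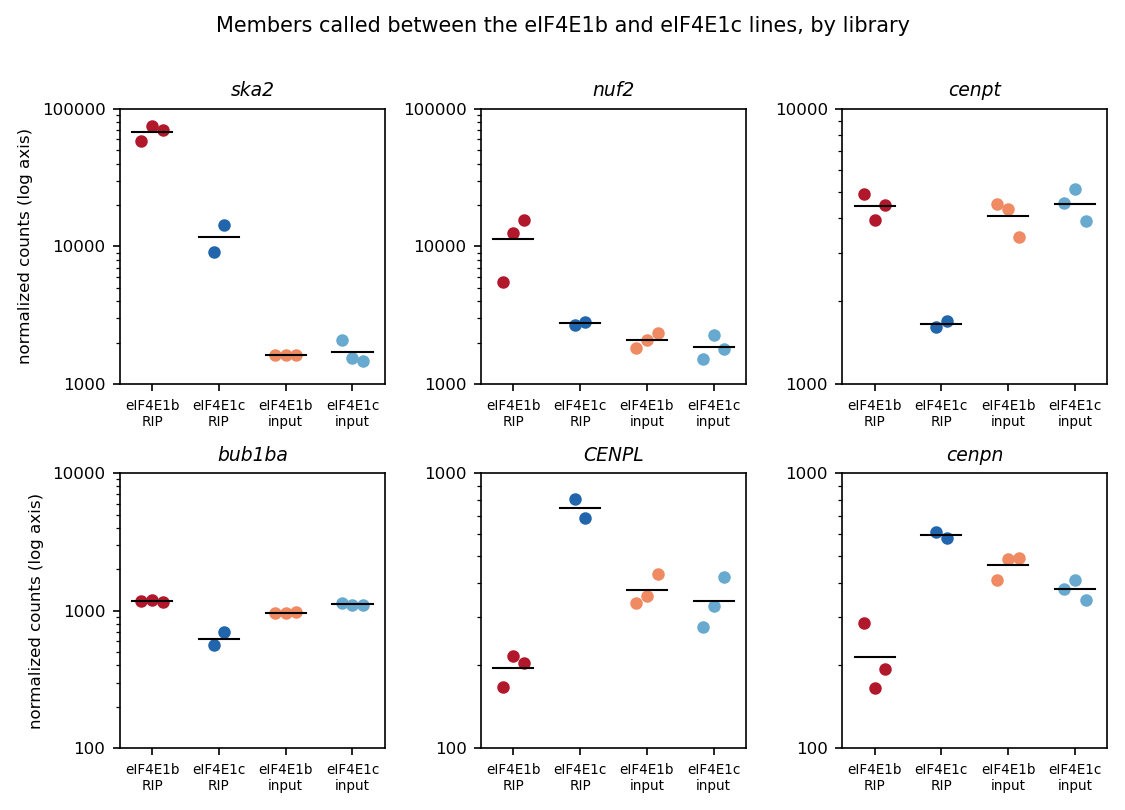
Normalized counts (vertical log axis) of the 6 genes called between the lines in the RIPs or in the RIP to input ratio. Each point is 1 library, with the RIPs of eIF4E1b and eIF4E1c on the left and the inputs of eIF4E1b and eIF4E1c on the right, and each line is the mean of its group. ska2, nuf2, cenpt and bub1ba were higher in every eIF4E1b RIP than in either eIF4E1c RIP, CENPL and cenpn were lower, and 0 of the 6 were called between the inputs.

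The second question was whether these transcripts already differed in the lysates. Between the inputs 0 of the 47 members were called in either direction by DESeq2, against 0.890% higher and 1.44% lower of all 15281 genes tested. At an unadjusted p under 0.05 both DESeq2 and edgeR gave 6 higher (12.8%) and 2 lower (4.26%), against 8.70% and 10.3% of all genes by DESeq2. edgeR called 0 members at an adjusted p under 0.005 and under 0.05. Of all 14539 genes it tested, it called 12 higher and 2 lower at 0.005, and 80 and 133 at 0.05. The median log2 fold change of the members was 0.14, with 35 positive and 12 negative values. That of all genes was 0.01, with 7773 positive and 7508 negative values. The log2 fold changes between inputs were -0.06 ± 0.16 (SE) for ska2, 0.16 ± 0.18 (SE) for nuf2, -0.14 ± 0.16 (SE) for cenpt and 0.14 ± 0.20 (SE) for CENPL. The smallest adjusted p was that of bub1, with 1512, 1870 and 1965 normalized counts in eIF4E1b inputs against 3373, 2406 and 2409 in eIF4E1c inputs. All eIF4E1b inputs were lower, with -0.60 ± 0.17 (SE) on the log2 scale, and the adjusted p was 0.0107 by DESeq2 and 0.0868 by edgeR. For ska2 the standard error was 0.16 between inputs and 0.39 between RIPs.

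The third comparison set the RIP of each line against its own input and asked whether the RIP to input ratio differed between the lines. A kit effect common to both lines cancels in it. The ratio was higher for eIF4E1b in 4 of the 47 members, ska2, cenpt, bub1ba and nuf2, and lower in 2, CENPL and cenpn. The calls were 8.51% higher and 4.26% lower of the members, against 3.73% higher and 5.24% lower of all 14194 genes tested. The median of the members was 0.10 and that of all genes 0.08 on the log2 scale. Scaling by total counts shifted the median of all genes by -0.23 and gave 1 higher and 3 lower members, namely ska2, and CENPL, cenpn and cenph. Of all 13726 genes tested with that scaling, 228 were higher and 841 lower. With 1 library left out, 2 members were higher without any one of the eIF4E1b inputs or without eIF4E1c input replicate 2 or 3. The calls over all genes in these fits were not counted, so this is not read as a trait of the members. edgeR called 1 higher and 1 lower, ska2 and CENPL, and 4 higher and 2 lower at an adjusted p under 0.05. With the replicate number as a block within each line the counts were 3 higher and 1 lower, and the calls of bub1ba (DESeq2 adjusted p 0.0229) and cenpn (0.00563) were lost. The block also pairs the eIF4E1c libraries by number, where the pairing was not established, and the calls over all genes with it were not counted.

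For ska2 the log2 ratio was 2.60 ± 0.36 (SE) higher with eIF4E1b, with an adjusted p of 2.30e-10 by DESeq2 and 0.00247 by edgeR. By adjusted p it stood at place 10 among the 529 genes whose ratio was called higher, and by size at place 125. For CENPL the difference was -2.06 ± 0.37 (SE), with an adjusted p of 2.10e-06 by DESeq2 and 0.00376 by edgeR. Both genes were called in all 18 alternatives run for the ratio. cenpt differed by 1.57 ± 0.31 (SE), with 1.57e-05 as its DESeq2 adjusted p, and cenpn by -1.76 ± 0.38 (SE), with 0.000117, and both calls held with each of the 11 libraries left out in turn.

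bub1ba differed by 1.1 ± 0.26 (SE), with 0.000402 as its DESeq2 adjusted p, while 0.78 ± 0.28 (SE) and 0.0346 were the values for its copy bub1bb, and whether the copies differ from each other was not tested. The call of bub1ba held without any single RIP library but was lost when any one of the 6 inputs was left out, with DESeq2 adjusted p-values between 0.00584 and 0.0113 and log2 differences between 1.08 and 1.11. nuf2 differed by 1.86 ± 0.51 (SE) with a DESeq2 adjusted p of 0.00333. Its call held in 3 of the 11 cases with a library left out, namely without eIF4E1b RIP replicate 1, eIF4E1c RIP replicate 2 or eIF4E1c input replicate 1, and in the other 8 the log2 difference was between 1.54 and 1.95 with DESeq2 adjusted p-values between 0.006 and 0.0217. BUB3 depended on single libraries here too, with a difference of -1.25 ± 0.69 (SE) over all libraries, -1.93 without eIF4E1c RIP replicate 1 (DESeq2 adjusted p = 0.00468, which was past the threshold) and 0.03 without eIF4E1c RIP replicate 2.

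In each line alone, the RIP was then compared with the input. In the eIF4E1b line 18 of 47 members (38.3%) were higher in the RIP and 12 (25.5%) were lower, against 23.0% and 23.2% of all 17123 genes tested. In the eIF4E1c line 15 (31.9%) were higher in the RIP and 9 (19.1%) were lower, against 17.2% and 16.8% of all 15131 genes tested. The median log2 fold change of the members was 0.21 with eIF4E1b and 0.57 with eIF4E1c, against 0.05 and 0.0039 for all genes. Without eIF4E1c input replicate 1 or 2 the eIF4E1c line had 9 members higher, and how many of all genes were higher then was not counted. edgeR called 17 higher and 10 lower in the eIF4E1b line, against 3411 and 3354 of all 14841 genes it tested. In the eIF4E1c line it called 8 and 5, against 1334 and 1011 of all 14676 genes. Scaling by total counts gave 15 higher and 14 lower in the eIF4E1b line, against 2884 and 5159 of all 17123 genes. It gave 9 and 10 in the eIF4E1c line, against 1972 and 2823 of all 15131 genes. The median of all genes shifted by -0.42 and -0.21.

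Higher in the RIP of both lines were 13 members (27.7%), and 8 (17.0%) were lower in both, against 13.1% and 13.5% of the 14907 genes tested in both lines. The 13 were cenpk, CENPP, CENPS, cenpw and CENPX of the inner kinetochore, dsn1, NSL1, spc24 and ska2 of the outer kinetochore, and oip5, MAD2L1, BIRC5 and birc5b. The 8 were the kinases bub1 and TTK, bub1bb, knl1, the outer scaffold on which checkpoint proteins gather, ndc80, cenpe, kntc1 and sgo1. CENPL was the single member called in opposite directions, as were 0.295% of all genes. Its log2 fold change of RIP over input was -0.97 ± 0.26 (SE) with eIF4E1b and 1.13 ± 0.35 (SE) with eIF4E1c. For the eIF4E1c line edgeR gave an adjusted p of 0.0143 and did not call it. The DESeq2 call there was lost with a replicate block, with independent filtering switched off, or when libraries were scaled by total counts. Leaving out any one eIF4E1c input also removed that call. The eIF4E1b call of CENPL was lost when eIF4E1b input replicate 2 or 3 was left out. In the eIF4E1b line alone cdca8, cenpo, itgb3bp, MIS12 and nuf2 were called higher and CENPF, cenpn and mad1l1 lower, and in the eIF4E1c line alone SPC25 was called higher and cenpt lower. Of these 10 genes, the ratio test called a difference between the lines for nuf2, cenpn and cenpt. The other 15 tested members were called in neither line. By role, 7 of 13 inner kinetochore genes and 6 of 11 outer kinetochore genes were higher in the eIF4E1b RIP and 2 of each were lower. Of 8 checkpoint genes 1 was higher and 4 were lower, and of 5 genes of the RZZ complex and corona 0 were higher and 3 were lower. Of 5 passenger and shugoshin genes 3 were higher and 1 was lower, and of 3 CENP-A loading genes 1 was higher and 0 were lower. In the eIF4E1c line 6 inner and 5 outer kinetochore genes were higher and 1 and 2 were lower. There 1 checkpoint gene and 0 of the RZZ complex and corona were higher and 3 and 2 were lower. Of the passenger and shugoshin genes 2 were higher and 1 was lower there, and of the CENP-A loading genes 1 was higher and 0 were lower. Over all genes tested 23.0% were higher and 23.2% lower in the eIF4E1b line, and 17.2% and 16.8% in the eIF4E1c line. The roles hold few genes, and whether they differ from each other was not tested.

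**Figure D3:**
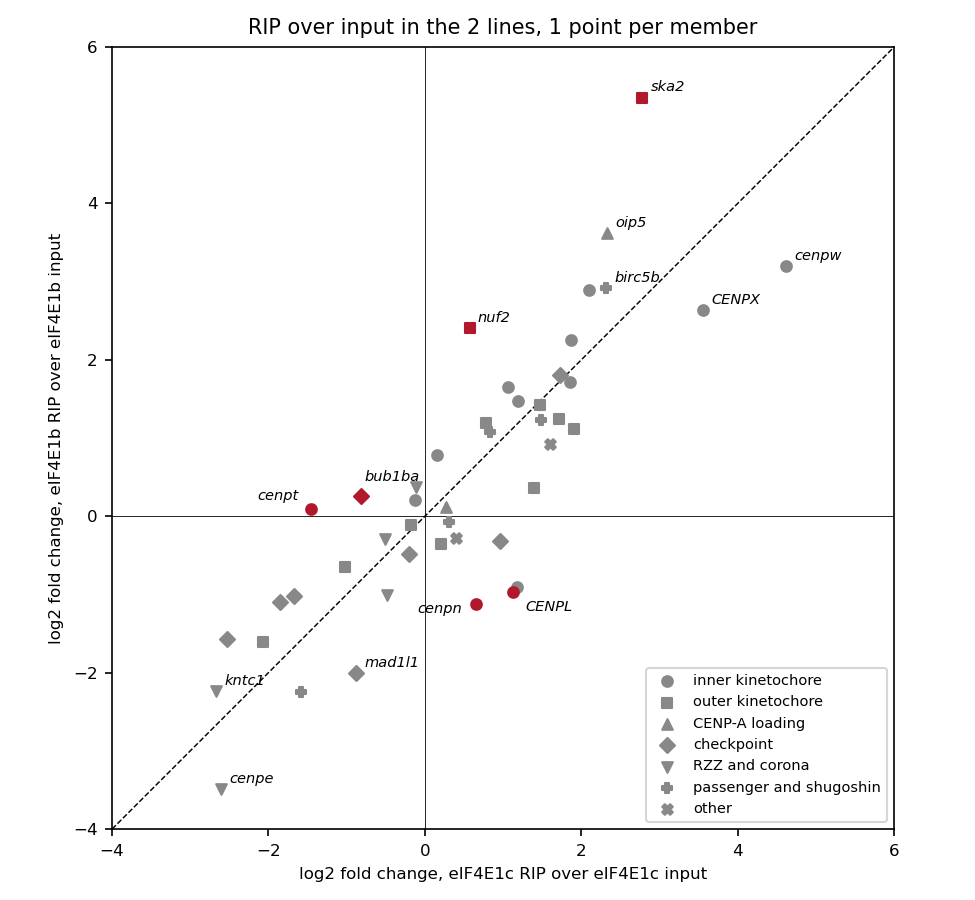
Log2 fold change of RIP over input in the eIF4E1b line (vertical axis) against the same in the eIF4E1c line (horizontal axis), 1 point for each of 46 of the 47 tested members, with the role given by the symbol. The dashed line marks equal values. The 6 red points are the genes whose ratio was called different, with ska2, nuf2, cenpt and bub1ba above the line and CENPL and cenpn below it.

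ska2 had the largest rise over input of the members in the eIF4E1b line, of 5.35 ± 0.20 (SE) on the log2 scale, or 40.9-fold, and a DESeq2 adjusted p of 7.09e-149. That p was the second smallest among the 3933 genes called higher there, and the fold change ranked 115. With eIF4E1c the rise was smaller, at 2.78 ± 0.35 (SE), or 6.86-fold, with a DESeq2 adjusted p of 3.86e-14. cenpw, the histone-fold partner of cenpt, had the largest rise of the members in the eIF4E1c line, with 530 and 906 normalized counts in the RIPs against 20.4, 41.9 and 24.9 in the inputs. Its log2 fold change was 4.61 ± 0.49 (SE) there and 3.20 ± 0.29 (SE) in the eIF4E1b line, with DESeq2 adjusted p-values of 2.01e-19 and 1.49e-27. CENPX rose by 3.56 ± 0.39 (SE) with eIF4E1c and by 2.64 ± 0.40 (SE) with eIF4E1b.

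cenpt, whose 3 partners were called higher in the RIPs of both lines, was higher in neither. In the eIF4E1b line its RIP and input were not called different, with 0.10 ± 0.22 (SE) on the log2 scale and a DESeq2 adjusted p of 0.723, and in the eIF4E1c line it was lower, with -1.45 ± 0.28 (SE) and a DESeq2 adjusted p of 1.04e-06. nuf2 was higher in the eIF4E1b RIP, with 2.41 ± 0.33 (SE), and was not called with eIF4E1c, with 0.57 ± 0.31 (SE) and a DESeq2 adjusted p of 0.120. At the low end, cenpe had 1308, 1040 and 1927 normalized counts in eIF4E1b RIPs against between 12712 and 18691 in eIF4E1b inputs. In the eIF4E1c line it had 3916 and 1740 in the RIPs against between 15516 and 18736 in the inputs. Its log2 fold change was -3.49 ± 0.28 (SE) with eIF4E1b and -2.61 ± 0.41 (SE) with eIF4E1c.

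Ratios of 2 genes inside 1 library do not depend on how libraries are scaled, and they were computed for partners of a complex. With 3 and 2 RIP libraries a permutation test of 1 ratio cannot reach 0.05, so none was run. The log2 ratio of ska2 to ska1 counts was 7.27, 7.84 and 7.09 in eIF4E1b RIPs, 4.95 and 4.31 in eIF4E1c RIPs, with 2.39 as the highest of the 6 inputs. Against ska3 it was 5.93, 5.52 and 5.29 in eIF4E1b RIPs, 2.46 and 2.87 in eIF4E1c RIPs, and between -0.57 and 0.23 in inputs. Both ratios were higher in every RIP than in any input and higher in every eIF4E1b RIP than in either eIF4E1c RIP. The ratio of ska3 to ska1 lay between 1.34 and 2.49 in all 11 libraries and overlapped between the RIPs of the lines. In the inputs it was 1.37, 1.80 and 1.62 with eIF4E1b, below the 2.26, 2.05 and 2.34 with eIF4E1c.

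The ratio of nuf2 to ndc80 was 1.61, 2.98 and 3.35 in eIF4E1b RIPs, 1.47 and 1.46 in eIF4E1c RIPs, and between -0.54 and 0.06 in inputs. The first eIF4E1b RIP was near the eIF4E1c RIPs here. The ratio of cenpt to cenpw was 3.05, 3.02 and 3.25 in eIF4E1b RIPs, 1.6 and 0.90 in eIF4E1c RIPs, and between 5.98 and 7.76 in inputs. The ratio of bub1ba to bub1bb was between 0.72 and 0.93 in eIF4E1b RIPs, 0.74 and 0.85 in eIF4E1c RIPs, and between -0.66 and -0.09 in inputs, so that all RIPs stood above all inputs and the 2 lines overlapped in the RIPs. The ratio of birc5b to BIRC5 was between 1.51 and 1.56 in eIF4E1b RIPs, 0.20 and 0.59 in eIF4E1c RIPs, and between -0.57 and 0.05 in inputs.

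**Figure D4:**
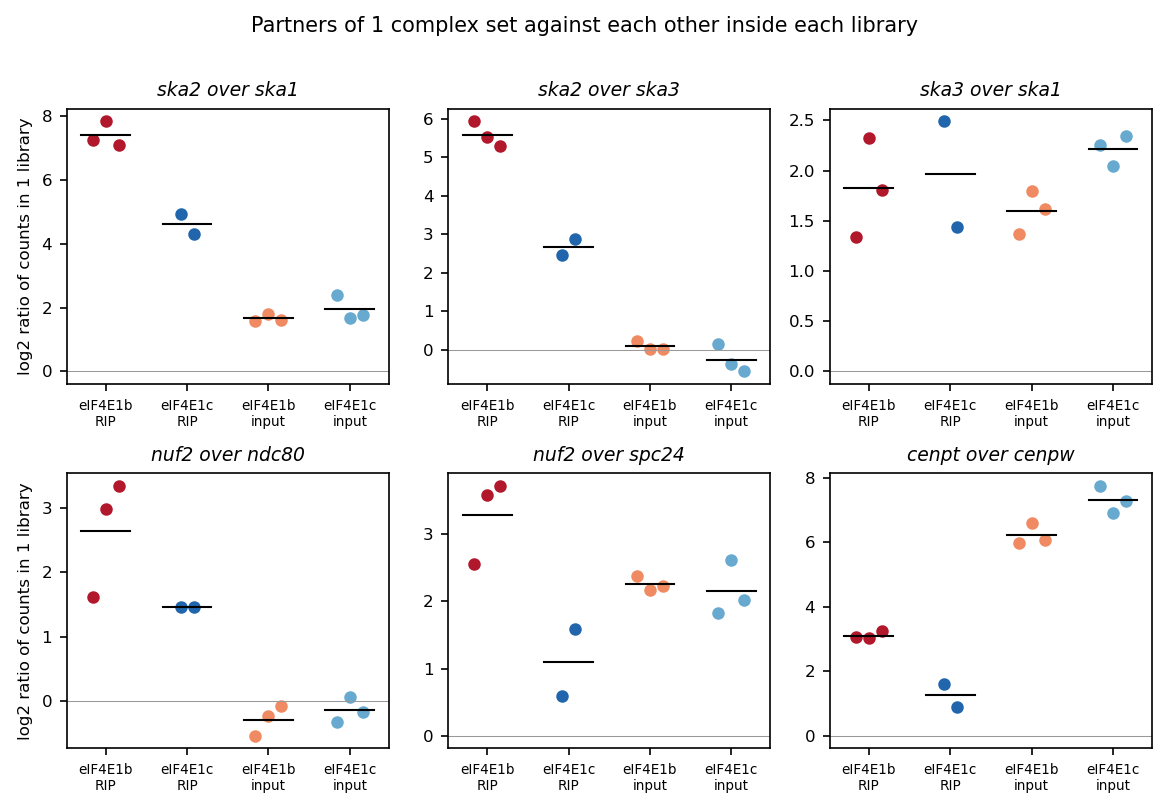
Log2 ratio of the counts of 2 partners of a complex inside each library (vertical axis), with the RIPs of eIF4E1b and eIF4E1c on the left and the inputs on the right. Each point is 1 library and each line the mean of its group. ska2 over ska1 was at 7.09 or above in eIF4E1b RIPs, at 4.95 or below in eIF4E1c RIPs and at 2.39 or below in inputs. ska3 over ska1 overlapped between the RIPs of the lines but was lower in every eIF4E1b input than in any eIF4E1c input.

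Other genes of the same pathway were read from 2 lists. Of 26 partners of the kinetochore and checkpoint outside the symbol rule, 19 were matched and tested, of which 1 was higher with eIF4E1b between the RIPs and 2 were lower, and the ratio was higher for 1 and lower for 4. Over all genes tested the calls between the RIPs were 3.44% higher and 4.51% lower, and those of the ratio 3.73% and 5.24%. haspin, the kinase that marks centromeres for the passenger complex, was higher in both comparisons, with 3968 ± 689 (SD, n = 3) normalized counts in eIF4E1b RIPs and 1209 ± 350 (SD, n = 2) in eIF4E1c RIPs. On the log2 scale the RIPs differed by 1.65 ± 0.40 (SE), with 0.000896 as the DESeq2 adjusted p. TRIP13, an ATPase that takes checkpoint complexes apart, was lower in both, with 84.9 ± 3.32 (SD, n = 3) and 472 ± 94.1 (SD, n = 2) normalized counts, and with -2.54 ± 0.45 (SE) on the log2 scale (DESeq2 adjusted p = 2.41e-06). pttg1, the securin that holds separase inactive, was also lower in both, with -1.98 ± 0.55 (SE) between the RIPs and a DESeq2 adjusted p of 0.00426. The ratio was lower as well for espl1, the separase, with -1.47 ± 0.34 (SE), and for mapre1b, a microtubule end-binding protein, with -1.75 ± 0.49 (SE). edgeR called 0 of the 19 between the RIPs at 0.005 and 1 higher and 3 lower at 0.05.

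Cohesin holds sister chromatids together until separase cuts it. Of 17 listed genes 8 identifiers were matched and 7 were tested, of which 1 was higher with eIF4E1b between the RIPs and 3 were lower, and the ratio gave the same counts, against the same shares of all genes as for the partners. Both lists were written with earlier results of these data known. The core subunits rad21a, SMC3 and SMC1A (ENSDARG00000058203) were lower. rad21a had 176 ± 37.9 (SD, n = 3) normalized counts in eIF4E1b RIPs and 1575 ± 1096 (SD, n = 2) in eIF4E1c RIPs. The 3 genes had log2 fold changes of -3.23 ± 0.52 (SE), -2.36 ± 0.42 (SE) and -2.15 ± 0.52 (SE). ESCO2, the acetyltransferase that locks cohesin on chromatin, was higher, with 9927 ± 2083 (SD, n = 3) normalized counts in eIF4E1b RIPs against 2164 ± 217 (SD, n = 2) in eIF4E1c RIPs and a log2 fold change of 2.13 ± 0.38 (SE). For these 4 genes the adjusted p of DESeq2 lay between 1.58e-07 and 0.000705. edgeR called 0 of the 7 between the RIPs at 0.005, and 1 higher and 3 lower at 0.05. Of the 7 cohesin genes tested, ESCO2 was the single one with a positive log2 fold change. 0 genes of either list were called between the inputs by DESeq2 or by edgeR. At an unadjusted p under 0.05 DESeq2 gave 3 of 19 partners and 2 of 7 cohesin genes, all higher with eIF4E1b. Of all genes it gave 8.70% higher and 10.3% lower.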

How the data were processed

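RNA that co-precipitated with tagged eIF4E1b or eIF4E1c and input RNA were sequenced from lysates of 8-cell zebrafish embryos, 11 libraries in all. The authors deposited 1 table of whole-number read counts per gene for each library, with no normalization. The submitters' processing notes name Trim Galore 0.5.0, Bowtie2 2.3.4.1, featureCounts of Subread 1.6.2, DESeq2 1.18.1, R 3.4.1 and the GRCz11 build. The use of strand, the treatment of reads with several matches and the annotation release are not given in the sources used here. Without them, reads of overlapping genes and of near-identical copies cannot be told apart. RIP libraries were made with the SMARTer ultra low RNA kit and inputs with a stranded SMARTer kit with Ribo-Zero.

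Symbols were taken from an Ensembl name table (29201 of 32520 identifiers), and the overlaps of genes from the RefSeq annotation of another build. Genes were tested with DESeq2 1.42.0 in R 4.3.3 (Wald test, Benjamini-Hochberg adjusted p under 0.005, as in the study's methods, and, by the tool's defaults, median-of-ratios scaling, independent filtering and unshrunken fold changes). 5 comparisons were made, between RIPs, between inputs, of RIP with input in each line, and of the RIP to input ratio between lines, the last from an interaction term over all 11 libraries. The other comparisons were fitted on their own groups. Normalized counts use size factors over all libraries, and the ± SE is that of the log2 fold change. The scripts were tested on simulated data. Alternatives were edgeR 4.0.16 (quasi-likelihood test), TMM and total count scaling, a minimum of 10 counts in 2 libraries, no independent filtering, 1 fit over all libraries, a replicate block, a looser threshold of 0.05, and each library left out in turn.

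Within the eIF4E1b line, RIP and input libraries of the same number deviated together from their group means (r = 0.45, 0.27 and 0.50 across 13114 genes), so the numbers were read as pairs there. In the eIF4E1c line r was 0.22 and 0.097 with 2 pairs only, RIP replicate 2 correlated more with input replicate 3 (0.20), and the number on its deposited table differs from that of its label, so the pairing of that line was not established. Between the lines r lay between -0.079 and 0.070. The genes were chosen, and the lists of partners and cohesin written, with earlier results of these data known. Genes named with full values are those called between RIPs, between inputs or in the ratio, the 3 in each direction with the smallest p between RIPs, ska2, and the copies bub1ba, bub1bb, BIRC5 and birc5b. Other members are named as the ends of a range or by role and were chosen after their values were seen. The values of 1 tested member are not reported here, though it is included in the counts. P-values measure the spread between libraries that the labels call biological replicates.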

Additional observations from a re-analysis of the deposited data

Results flagged for a closer look

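For 6 kinetochore and checkpoint genes the RIP to input ratio differed between the lines by the interaction test of DESeq2. On the log2 scale, eIF4E1b minus eIF4E1c, the difference was 2.60 for ska2, 1.86 for nuf2, 1.57 for cenpt and 1.1 for bub1ba, and it was -2.06 for CENPL and -1.76 for cenpn. edgeR called ska2 and CENPL at an adjusted p under 0.005. The groups hold 2 or 3 libraries, too few to test any single library as an outlier.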

How the results depend on the processing

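Of 156 counts of called members under other settings, 120 were within 1.5 times the count reported. The exceptions were these, each given as higher then lower. Between the RIPs (3 and 1) edgeR gave 0 and 0, and 2 lower at an adjusted p under 0.05. DESeq2 gave 4 lower at an adjusted p under 0.05, and 7 and 4 when all 11 libraries were fitted together. Between the inputs (0 and 0) DESeq2 gave 1 and 1 at an adjusted p under 0.05. For the ratio (4 and 2) edgeR gave 1 and 1, total count scaling 1 higher, DESeq2 at 0.05 gave 5 lower, and leaving out the first eIF4E1c RIP and input together gave 2 higher. For RIP against input in the eIF4E1c line (15 and 9) edgeR gave 8 and 5 and total count scaling 9 higher. The edgeR counts at 0.05 and the omission of both first eIF4E1c libraries were chosen after seeing the data. For DESeq2 at 0.05, the fit of all libraries together and that omission, the calls over all genes were not counted. Those counts are thus not read as a trait of the members.

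With the replicate number as a block, 1 member was called higher and 0 lower between the RIPs, where the numbers did not pair the libraries, and CENPL lost its call (adjusted p 0.00717). The ratio then gave 1 lower, and RIP against input in the eIF4E1c line 9 higher, with a pairing of the eIF4E1c libraries that was not established. In the eIF4E1b line, where the numbers did pair the libraries, the block gave 19 and 12 and added MAD2L2 (adjusted p 0.00492). The calls over all genes with the block were not counted.

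With 1 library left out in turn, the counts between the RIPs ran from 1 to 6 higher and from 1 to 2 lower. Without eIF4E1c RIP replicate 2 the higher genes were bub1, cenpt, itgb3bp, nuf2, oip5 and ska2, and without eIF4E1c RIP replicate 1 only ska2 was higher and BUB3 and CENPL were lower. Either omission leaves 1 eIF4E1c RIP, whose spread is assumed to be that of the other groups. The eIF4E1c RIP left without replicate 2 held 1 read of itgb3bp. How many of all genes were called with 1 library left out was not counted. No count of this paragraph is thus read as a trait of the members. The ratio gave from 2 to 7 higher and from 2 to 4 lower, and RIP against input in the eIF4E1c line from 9 to 21 higher.

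Among the named members, signs of log2 differences changed as follows. For BIRC5 between the RIPs they ran from -0.55 to 0.42 with a library left out, and were 0.0198 with TMM scaling and 0.0625 with all libraries fitted together. For BIRC5 in the ratio they ran from -0.81 to 0.20, for BUB3 in the ratio from -1.93 to 0.0283, for CENPL between inputs from -0.0010 to 0.31 and for ska2 between inputs from -0.16 to 0.10. The causes were not tested.

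Limits apply throughout. There were 2 eIF4E1c RIPs, of unequal depth, and no pull-down without a tagged protein was analysed here. Kit and pull-down cannot be told apart when RIP is set against input, and the level of each tagged protein was not analysed here. CENPV was not interpreted. It had 20 reads in eIF4E1c RIP replicate 2 and between 0 and 4 in every other library, near the floor of 3 reads. itgb3bp was tested, but it had 1 read in eIF4E1c RIP replicate 1 and 3 in eIF4E1c input replicate 1.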
